A study of Homo sapiens with 4 samples.

Results

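Long noncoding RNAs (lncRNAs) are transcripts that work as RNA, and 6 of them were examined here for their level and for their N6-methyladenosine (m6A) peaks: MALAT1, NEAT1, TUG1, KCNQ1OT1, GAS5 and SNHG1. They were chosen by gene name in the table of gene levels and in both peak lists, and they make up 6 of the 28283 genes of that table. The cells were A549, a human lung adenocarcinoma line grown in RPMI medium with serum. The control cells carried the lentiviral vector with a control shRNA (shNC), and the other cells carried shY2-2, the second of a pair of shRNAs against YTHDF2 used in the study. Poly(A) RNA of each was fragmented and sequenced once as such (input) and once after pull-down with an m6A antibody (IP), so there were 4 libraries, 1 of each kind per condition, and no replicates. Differences between shNC and shY2-2 therefore describe 1 stable knockdown line and 1 control line, and no p-value was computed for them.

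m6A is added to RNA in the nucleus by the METTL3 and METTL14 complex, mostly at an A followed by C in sequences such as GGACT. YTHDF2 is a cytoplasmic protein that binds m6A and brings the bound RNA to deadenylation and decay, whereas YTHDC1 reads m6A in the nucleus. MALAT1 is a nuclear RNA of the splicing speckles that was first described through its link to metastasis of lung cancer, and NEAT1 is the scaffold RNA of paraspeckles. KCNQ1OT1 is made antisense to KCNQ1 and silences neighbouring imprinted genes in cis, and TUG1 is found in both nucleus and cytoplasm. GAS5 and SNHG1 are spliced RNAs whose introns give rise to small nucleolar RNAs (snoRNAs), which guide chemical changes on ribosomal RNA. Their spliced forms reach ribosomes and are known substrates of nonsense-mediated decay.

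The input libraries were first checked against their labels. The level of a gene was given in FPKM, fragments per length of transcript scaled to the mapped fragments, from the input libraries. YTHDF2 itself was at 3.56 FPKM in shNC and 1.02 in shY2-2, a log2 ratio of -1.18. Ratios here are on the log2(FPKM + 1) scale, shY2-2 minus shNC, and are therefore too small for RNAs of low level. All 10 airway and A549 epithelial markers were detected, from KRT7, KRT8 and KRT18 to the aldo-keto reductases. Of the type II pneumocyte markers SFTPC was at 0.0303 and 0.0670 FPKM, and of the blood and endothelial markers none passed 0.1 FPKM in either library. The sum of FPKM over the epithelial markers was 6003 in shNC and 4884 in shY2-2, and their log2 ratios ran from -0.95 for KRT19, a keratin, to 0.44 for NQO1, a quinone reductase, with 8 of 10 below 0. Over the 7 markers of blood, endothelium and fibroblasts that had a row, the sum was 1.83 FPKM in shNC and 1.85 in shY2-2. The largest of these was the fibroblast collagen COL1A1, at 0.834 and 1.64 FPKM, and the T cell marker CD3E was at 0.0171 and 0. The part of the lower epithelial markers in the values below was not tested.

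Of the 6 RNAs, 5 were above 1 FPKM in both input libraries and KCNQ1OT1 was not. MALAT1 (ENSG00000251562, chr11:65497762-65506516, plus strand) was at 22.2 FPKM in shNC and 12.4 in shY2-2. NEAT1 (ENSG00000245532, chr11:65422774-65445540, plus strand) was at 4.89 FPKM in shNC and 2.86 in shY2-2. Both nuclear RNAs were thus lower in the knockdown library, MALAT1 by a linear ratio of 1.80 and NEAT1 by 1.71. The libraries were made from poly(A) RNA, so RNA without a poly(A) tail is under-counted in all levels given here. TUG1 (ENSG00000253352, chr22:30970677-30979395, plus strand) was at 15.4 and 13.8 FPKM. SNHG1 (ENSG00000255717, chr11:62851988-62855914, minus strand) was at 14.9 and 14.8 FPKM, and GAS5 (ENSG00000234741, chr1:173863900-173868882, minus strand) was at 17.5 and 21.0 FPKM. In the poly(A) RNA counted here, MALAT1 was the highest of the 6 in shNC. In shY2-2 GAS5 was the highest, and MALAT1 was below SNHG1 and TUG1 too. The order of the 6 in total RNA was not measured. KCNQ1OT1 (ENSG00000269821, chr11:2608328-2699994, minus strand) was at 0.0390 FPKM in shNC and 0.0328 in shY2-2. By that value KCNQ1OT1 is not an abundant RNA of these cells, although FPKM averages over a gene of 91667 nt. All coordinates are on GRCh38 as the deposited files give them.

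**Figure D1:**
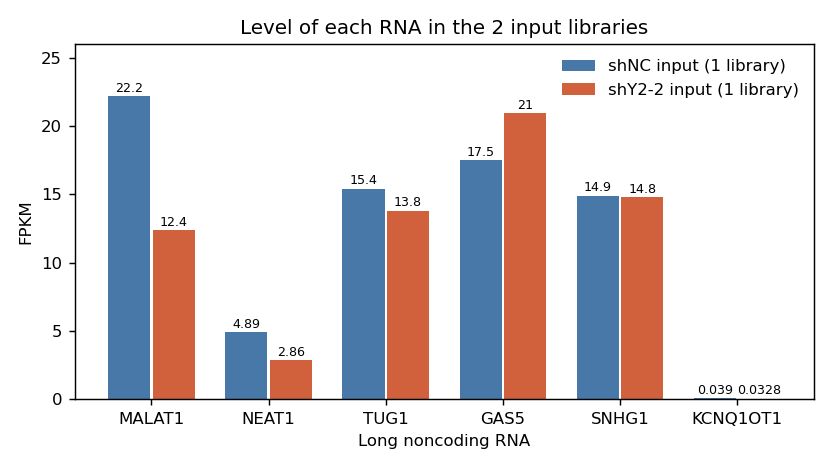
FPKM of the 6 long noncoding RNAs (vertical axis) in the shNC input library (blue) and the shY2-2 input library (orange), 1 library each and no error bars. MALAT1 was at 22.2 and 12.4, NEAT1 at 4.89 and 2.86, GAS5 was at 17.5 and 21.0, TUG1 and SNHG1 differed by a smaller amount, and KCNQ1OT1 was near 0.

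The size of these differences was read against all genes. Genes were kept if either input library gave them 1 FPKM or more, which left 12268, and 5 of the 6 RNAs were among them. Their log2 ratios were -0.80 for MALAT1, -0.61 for NEAT1, -0.15 for TUG1, -0.01 for SNHG1 and 0.25 for GAS5. None of the 5 passed a log2 ratio of 1 in size, which 0.986% of all genes kept did upwards and 2.14% downwards. MALAT1 lay at percentile 4.31 of all ratios and NEAT1 at percentile 8.25, TUG1 at 34.7, SNHG1 at 48.7 and GAS5 at 75.8. With a limit of 1.5-fold, MALAT1 and NEAT1 counted as lower, together with 8.92% of all genes kept, and none of the 5 RNAs counted as higher, against 5.38% of genes. In bulk RNA, fewer cells that make an RNA and less of that RNA per cell cannot be told apart.

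**Figure D2:**
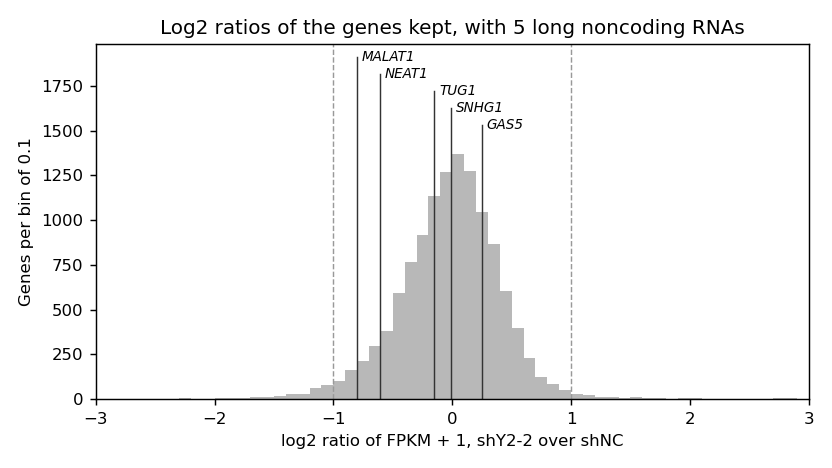
Number of genes (vertical axis) per bin of 0.1 in log2 ratio of shY2-2 over shNC (horizontal axis) for the 12268 genes kept, with vertical lines at 5 long noncoding RNAs and dashed lines at -1 and 1. MALAT1 at -0.80 and NEAT1 at -0.61 lie in the lower tail inside the dashed line, and the other RNAs lie near the centre.

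Among lncRNAs the ranks moved in the same way. The reference annotation, GENCODE release 44, classes 723 of the genes kept as lncRNA, with a median log2 ratio of 0.04. By these poly(A) levels MALAT1 ranked 17 of 723 in shNC and 33 in shY2-2, and NEAT1 ranked 104 and 222. GAS5 ranked 23 and 21, and SNHG1 ranked 29 and 27, so the host genes kept nearly the same rank. TUG1 is classed as protein-coding in that release and has no rank among lncRNAs. A log2 ratio at or below that of MALAT1 was found for 25 of the 723 lncRNAs, and one at or below that of NEAT1 for 45. A second row of the table, a 95 nt entry inside MALAT1 that carries the same name, was at 0.144 and 0.118 FPKM and was not used as the level of MALAT1.

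The genes closest in level over the 2 input libraries were found by distance of log2(FPKM + 1), among the genes kept. For MALAT1 these were SLC38A1, an amino acid transporter, at 23.0 and 12.3 FPKM, and NTN4, a netrin, at 23.3 and 12.7 FPKM. For NEAT1 they were SMCHD1, a chromatin protein of X inactivation, and ARID2, a subunit of a chromatin remodelling complex. TUG1 was closest to PIGS and RNF40, GAS5 to SCCPDH and LSM3, and SNHG1 to DCAF7 and EXOSC10, the nuclear exosome subunit. With only 2 values per gene, this likeness is a description.

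The m6A peaks were then listed along each RNA. A peak is a stretch where the IP library exceeded its own input library, and its fold enrichment is the linear ratio of IP over input. The authors called peaks in each condition on 1 IP and 1 input library, and the same stretch can be listed more than once, with different ends and values. The whole lists held 31057 distinct peaks in shNC and 27344 in shY2-2, and all were used, with no limit on FDR. The paper counts fewer peaks in each condition, so peak counts and shares given here describe a larger set than its own. Across the 6 names the shNC list held 21 distinct peaks that covered 9230 nt, and the shY2-2 list held 29 that covered 11206 nt. When overlapping peaks were merged there were 18 and 20 regions. Of the 21 shNC peaks 15 had an FDR of at most 0.05, and of the 29 shY2-2 peaks 21 did. Fold enrichment ran from 1.22 to 143 in shNC and from 1.22 to 68.4 in shY2-2, with medians of 1.82 and 2.12 beside 2.17 and 2.26 over all peaks of each list. All of the 5 RNAs kept had peaks in both lists, as did 72.7% of all genes kept and 31.3% of the lncRNAs kept. KCNQ1OT1 had no peak in either list. Among the 16015 genes below the FPKM limit, 17.7% had a peak in at least 1 list, against 86.9% of the genes kept, and the part of its low level in the lack of a KCNQ1OT1 peak was not tested.

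Peaks were counted as met when at least 1 base of their exonic blocks overlapped a peak of the other list on the same strand. Of the 21 shNC peaks 15 met a shY2-2 peak (71.4%, exact binomial 95% interval 47.8 to 88.7), where the share over all shNC peaks was 55.9%. Of the 29 shY2-2 peaks 17 met a shNC peak (58.6%, 38.9 to 76.5), where the share over all shY2-2 peaks was 65.4%. These intervals express counting error of peaks alone, and nested peaks of 1 RNA are not independent. Both intervals contain the share of the whole list.

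The length covered by peaks differed most for MALAT1. Its peaks covered 544 nt in shNC and 2513 nt in shY2-2, a ratio of 4.62. NEAT1 had 3697 and 4720 nt covered, TUG1 812 and 960 nt, GAS5 2444 and 2087 nt, and SNHG1 1733 and 926 nt. Among all 10116 genes with peaks in both lists, 10.7% had a ratio of at least 2 and 19.7% a ratio of at most 0.5, with a median of 0.869. MALAT1 was the single one of the 5 RNAs past either limit. Counted by gene identifier, without the 95 nt entry, its ratio was 4.50 and lay at percentile 97.2 of those genes. SNHG1, with a ratio of 0.534, lay at percentile 22.4.

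**Figure D3:**
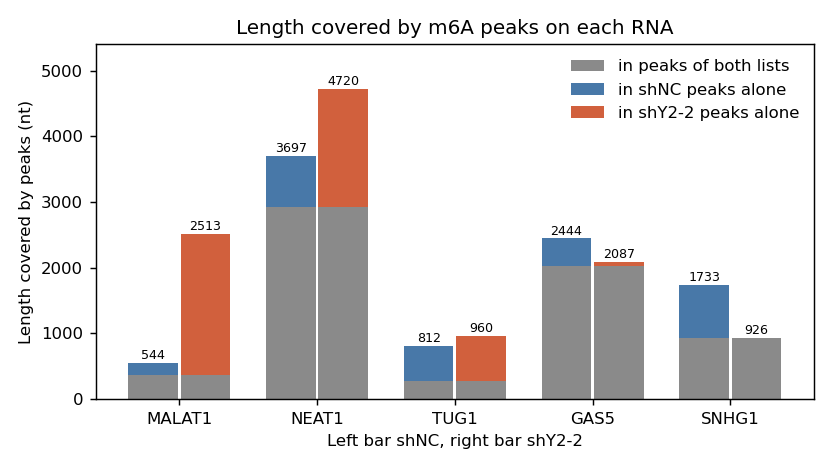
Length in nt covered by m6A peaks (vertical axis) on 5 long noncoding RNAs, with shNC in the left bar and shY2-2 in the right bar of each pair. Grey marks the part covered in both lists and colour the part covered in 1 list alone: MALAT1 shared 362 nt of 544 and 2513 nt, and all 926 nt of SNHG1 in shY2-2 were also covered in shNC.

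MALAT1 peaks are taken first, since they changed most between the lists. The files place MALAT1 on 8755 nt, all of it in the single exon of the canonical transcript of the reference. The shNC list held 4 peaks, between nt 2729 and nt 4858 counted from the 5′ end. The strongest lay at nt 4648 to 4858 (chr11:65502409-65502619), with a fold enrichment of 3.99 and an FDR of 2e-16. It is shown here because it is the strongest MALAT1 peak of the control cells and the whole of it was covered again in shY2-2. Capitals mark DRACH, the general m6A sequence, in which the A is preceded by A or G, that base by anything but C, and the A is followed by C and then anything but G.

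MALAT1 nt 4648 to 4858: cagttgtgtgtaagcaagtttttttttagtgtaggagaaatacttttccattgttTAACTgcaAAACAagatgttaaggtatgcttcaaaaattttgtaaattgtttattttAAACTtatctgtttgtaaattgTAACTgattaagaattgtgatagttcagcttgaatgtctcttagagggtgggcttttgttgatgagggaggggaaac

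This stretch holds 4 DRACH sequences and no GGAC. The other shNC peaks were weaker, with fold enrichments of 1.30, 1.46 and 1.35. The one at nt 2729 to 2909 (chr11:65500490-65500670) had an FDR of 5.01e-08 and was also covered in shY2-2. The pair at nt 3359 to 3449 and nt 3509 to 3569, with FDRs of 0.0214 and 0.0832, met no shY2-2 peak.

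The shY2-2 list held 11 peaks on MALAT1 that merged into 6 regions, between nt 2759 and nt 7106. The region over the strongest control peak ran from nt 4618 to nt 5008, with a fold enrichment of 2.65 and an FDR of 1.66e-05. The highest fold enrichment, 2.74, belonged to the longest peak, 720 nt at nt 6027 to 6746 (chr11:65503788-65504507), with an FDR of 2.88e-05 and no shNC peak over it. Further regions without a shNC peak lay at nt 4108 to 4528 (1.68), nt 5153 to 5697 (up to 2.70) and nt 6866 to 7106 (up to 1.36). With MALAT1 cut into 3 equal parts, the 3′ part held no covered base in shNC and 1005 covered nt in shY2-2. A further shY2-2 peak at nt 8065 to 8365, listed under the name mascRNA-menRNA, had a fold enrichment of 2.08. mascRNA is the small RNA cut from the 3′ end of the MALAT1 precursor, and its own row was at 0.0904 and 0.0686 FPKM. Stricter limits kept the order of the lists: at an FDR of at most 0.05 MALAT1 had 3 peaks over 483 nt in shNC and 7 over 2164 nt in shY2-2, and at a fold enrichment of at least 2 it had 1 over 211 nt and 3 over 1206 nt. The wider coverage in shY2-2 went with a lower MALAT1 level in the same cells and with weaker peaks over the shared stretches.

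MALAT1 holds 13 GGACT sequences, and few of them fell inside peaks. Neither list covered the group of GGACT sequences whose A lies at nt 2515, 2577, 2611 and 2720, and the last of these lies 9 nt before the first shNC peak. In other human cell lines these A bases are known m6A sites, and the one at nt 2577 lies in a hairpin where m6A opens the binding site of HNRNPC. The stretch with all 4 is shown for that reason, with GGACT in capitals (chr11:65500262-65500495, plus strand).

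MALAT1 nt 2501 to 2734: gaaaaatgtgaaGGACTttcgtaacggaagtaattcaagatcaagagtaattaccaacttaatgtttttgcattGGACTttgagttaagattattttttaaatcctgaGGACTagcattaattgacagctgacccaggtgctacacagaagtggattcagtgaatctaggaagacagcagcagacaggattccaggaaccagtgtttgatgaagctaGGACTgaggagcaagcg

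In shY2-2 peaks MALAT1 had 2 GGACT sequences, and in shNC peaks it had 0. Both are shown with 12 nt on either side, and were chosen after their values were seen. The first lies in the region at nt 5153 to 5697 and the second in that at nt 6866 to 7106.

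MALAT1 nt 5580 to 5608: tttaaaattgtaGGACTtgttcctgtggg

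MALAT1 nt 6859 to 6887: ggtggtgggaggGGACTgaagcctttagt

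NEAT1 carried by far the strongest enrichment of the 6 RNAs, and in shNC all of it lay in the first 5778 nt. The files place NEAT1 on 22767 nt, and the reference holds a short isoform that ends at nt 3684. The short isoform carries a poly(A) tail, whereas the long isoform, which builds paraspeckles, ends in a triple helix without one. In shNC 93.6% of the covered length lay in the short isoform, of which 93.9% was covered, against 1.24% of the rest. Input and IP were both made from poly(A) RNA, and the part of the missing tail in this difference was not tested. The strongest shNC peak was also the longest, 2967 nt at nt 804 to 3770 (chr11:65423577-65426543), with a fold enrichment of 143 and an FDR of 1e-216. The highest value of the whole shNC list was 151. A nested peak at nt 3328 to 3612 had a fold enrichment of 2.55, so the same bases carried very different values in the list. At the very 5′ end 3 overlapping peaks, together nt 1 to 595, had fold enrichments between 22.7 and 24.5.

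In shY2-2 the same 2 stretches led. The peaks at nt 1 to 595 had fold enrichments between 25.9 and 32.4. The strongest peak, again the longest, covered 2338 nt at nt 1433 to 3770 (chr11:65424206-65426543), with a fold enrichment of 68.4 and an FDR of 1e-141, where the highest value of the whole shY2-2 list was 246. It began further from the 5′ end than in shNC, but a pair of shY2-2 peaks listed under the name NEAT1_3, a conserved segment of NEAT1, covered nt 804 to 1373 at fold enrichments of 4.65 and 4.58. Peaks under such names lay there in shNC too, inside the strongest shNC peak. NEAT1_3 had one at nt 926 to 2054 (7.13) and one at nt 1187 to 1345 (1.65). NEAT1_2 had one at nt 865 to 969 (2.48). Counted by name, 2921 nt of the 3697 nt covered in shNC were covered in shY2-2, and counted by position it was 3491 nt, or 94.4%. By position 93.9% of the short isoform was covered in shNC and 91.6% in shY2-2.

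The sequence of the 5′ end is shown because peaks of both lists began at its first base, with DRACH in capitals (chr11:65422774-65422973, plus strand). Among its 5 DRACH sequences are GGACA, which overlaps another, and GGACC.

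NEAT1 nt 1 to 200: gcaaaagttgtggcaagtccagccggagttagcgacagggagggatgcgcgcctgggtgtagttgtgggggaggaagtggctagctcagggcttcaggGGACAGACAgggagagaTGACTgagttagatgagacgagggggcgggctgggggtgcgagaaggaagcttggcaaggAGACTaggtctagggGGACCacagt

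Outside the short isoform the lists differed. The shNC list held 1 peak there, at nt 5628 to 5778, with a fold enrichment of 4.58 and an FDR of 0.196. The shY2-2 list held 3, at nt 5239 to 5658 (fold enrichment 11.6, FDR 0.0427), nt 6767 to 7216 (8.09, FDR 0.603) and nt 15935 to 16894 (6.94, FDR 0.979). The rest of NEAT1 was then covered over 1916 nt, or 10.0%, in shY2-2 and over 237 nt in shNC. These peaks had high ratios and weak FDRs. At an FDR of at most 0.05 the covered length of NEAT1 was 3546 nt in shNC and 3310 nt in shY2-2 by name, and 3546 and 3880 nt by position, so its order depended on whether the NEAT1_3 peaks were counted. Of the 19 GGACT sequences of NEAT1, 1 lay in a peak, and by position it was covered in both lists, in shNC by the strongest NEAT1 peak and in shY2-2 by the longer NEAT1_3 peak, at nt 804 to 1373. It is shown with 12 nt on either side and was chosen after its value was seen (chr11:65423632-65423660).

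NEAT1 nt 859 to 887: agtgctccttttGGACTtttctctaggtt

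**Figure D4:**
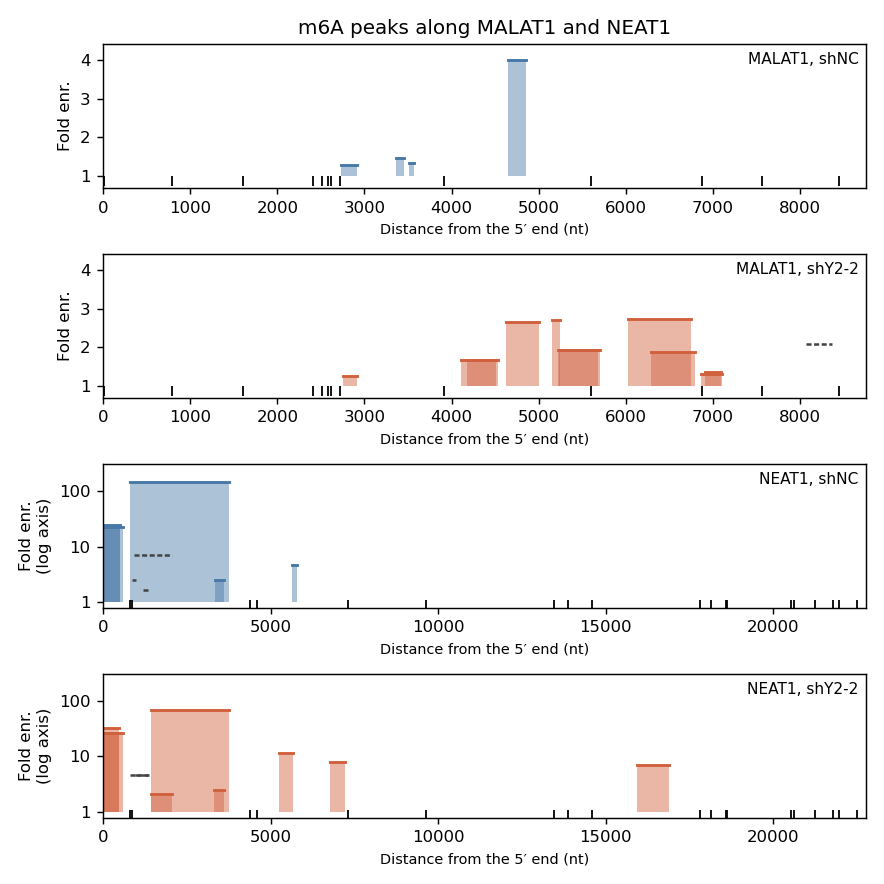
Fold enrichment of IP over input (vertical axis, drawn from 1 upwards, on a log axis for NEAT1) of each m6A peak against its distance from the 5′ end in nt (horizontal axis), for shNC in blue and shY2-2 in orange. Black ticks mark GGACT, dashed lines are peaks listed under other names, and 2-block peaks are drawn from first to last base: MALAT1 peaks reach nt 4858 in shNC and nt 7106 in shY2-2, and NEAT1 peaks are strongest before nt 3770 in both.

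GAS5 peaks took nearly the same places in both lists. In shNC its 3 peaks covered 2444 nt, in shY2-2 its 4 peaks covered 2087 nt, and 2028 nt were covered in both, 83.0% and 97.2% of each. Positions are along the gene span of GAS5 given above. Its canonical transcript, at chr1:173858997-173867989, starts inside that span and runs past its 3′ end. With the span cut into 3 equal parts, no base of the 5′ part was covered in either list. The strongest and longest peak sat at the 3′ end of the span in both, over canonical exons 9 to 11 of 12. It had 1280 nt at nt 3704 to 4983 in shNC (chr1:173863900-173865179, fold enrichment 3.23, FDR 3.98e-72). In shY2-2 it had 1013 nt at nt 3971 to 4983 (chr1:173863900-173864912, fold enrichment 3.52, FDR 1e-116). The shNC peak at nt 2481 to 3585, with a fold enrichment of 1.82, was split in shY2-2 into one at nt 2481 to 2719 (2.12) and one at nt 2809 to 3585 (2.35). The first peak was at 1.64 in shNC and 1.77 in shY2-2. So each GAS5 stretch was at least as enriched in shY2-2 as in shNC, while the input level of GAS5 was also higher there.

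Most of that covered length was not in the exons of the canonical GAS5 transcript. Of the covered length, 353 nt (14.4%) in shNC and 344 nt (16.5%) in shY2-2 were canonical exon, and the rest was canonical intron that other reference transcripts retain. RefSeq (GRCh38.p14) places 11 snoRNAs inside GAS5, and 8 of them lay wholly inside peaks in both lists: SNORD76, SNORD77, SNORA103, SNORD44, SNORD79, SNORD80, SNORD47 and SNORD81. The other 3, SNORD74, SNORD75 and SNORD78, had no covered base in either list. Box C/D snoRNAs such as these SNORD RNAs guide 2′-O-methylation. None of the 11 has a row in the FPKM table, so their level was not analysed here. The canonical transcript has 768 nt, of which 459 nt lie in the span. By contrast, 353 nt of these 459 nt were covered in shNC, or 76.9%, and 344 nt in shY2-2, or 74.9%.

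GAS5 holds 3 GGACT sequences in the annotated exons of any transcript, and 2 of them lay inside the 3′ peak in both lists. The one nearer the middle of the shared stretch is shown with 12 nt on either side (chr1:173864221-173864249, minus strand). It lies in a canonical intron and its last 2 bases are the first of SNORD81.

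GAS5 nt 4634 to 4662: ttggaaatgttgGGACTattataattgca

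SNHG1 kept its 3′ peaks and was without its 5′ peaks in shY2-2. The 3′ peak spanned 359 nt at nt 3569 to 3927 in shNC (chr11:62851988-62852346, fold enrichment 1.94, FDR 2.09e-09) and 299 nt at nt 3599 to 3897 in shY2-2 (chr11:62852018-62852316, fold enrichment 1.86, FDR 2.51e-11). It was the strongest of SNHG1 in both lists and lay in exon 11 of 11 of the canonical transcript. The longest peak had 776 nt at nt 1968 to 2847 in shNC, with a fold enrichment of 1.78, and 627 nt at nt 2221 to 2847 in shY2-2, with 1.76. Every base covered in shY2-2 was covered in shNC as well. The shNC list had a further pair of peaks at the 5′ end, at nt 90 to 418 (1.61, FDR 0.0525) and nt 478 to 746 (1.35, FDR 0.159), which met no shY2-2 peak. Both miss an FDR of 0.05, and under that limit SNHG1 had 2 peaks in each list, over 1135 and 926 nt.

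The whole shared 3′ stretch of SNHG1 is shown because it lies entirely in a canonical exon, unlike most of the length covered on GAS5 and SNHG1. It is given with DRACH in capitals (chr11:62852018-62852316, minus strand). It holds 8 DRACH sequences, of which 1 is the single GGACT of this RNA inside peaks, at nt 3863.

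SNHG1 nt 3599 to 3897: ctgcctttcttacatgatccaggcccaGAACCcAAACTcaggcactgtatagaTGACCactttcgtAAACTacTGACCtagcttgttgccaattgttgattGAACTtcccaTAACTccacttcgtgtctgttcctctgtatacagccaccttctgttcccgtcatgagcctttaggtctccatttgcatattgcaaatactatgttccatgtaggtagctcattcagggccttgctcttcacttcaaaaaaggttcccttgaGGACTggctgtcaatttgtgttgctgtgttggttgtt

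RefSeq places 9 snoRNAs inside SNHG1, all in canonical introns. In shNC peaks 3 of them lay whole, SNORD25 and SNORD26 under the 5′ peaks and SNORD31 under the long peak, and in shY2-2 only SNORD31 did. Of the covered length, 30.8% in shNC and 40.9% in shY2-2 was canonical exon. SNORD26 was at 16.0 FPKM in shNC and 9.13 in shY2-2, SNORD27 at 7.04 and 0.0775, and SNORD30 at 1.72 and 2.76, while SNORD25 was at 0.126 and 0.0961. A row named SNORD22, at chr11:62854161-62854285, was at 12.2 and 10.2 FPKM, but RefSeq names that place LOC124900306. Another row of the name SNORD22, at chr11:62852910-62853035, where RefSeq has SNORD22, was at 0.00360 and 0.00363 FPKM. These snoRNAs are 65 to 126 nt long, and FPKM of such short features rests on few positions. Of the 4 snoRNA rows with at least 1 FPKM, SNORD30 alone was higher in shY2-2, and SNHG1 itself was at 14.9 and 14.8 FPKM.

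TUG1 had 4 shNC and 3 shY2-2 peaks, with fold enrichments of at most 1.87 and 2.78, and 2 of the shNC peaks met none of the other list. The strongest shNC peak was at nt 5667 to 5877 (chr22:30976343-30976553, fold enrichment 1.87, FDR 0.000741) in exon 3 of 3 of the canonical transcript. In shY2-2 the same place was covered by the longest peak, 510 nt at nt 5727 to 6236 (chr22:30976403-30976912, fold enrichment 2.10, FDR 7.59e-06). The longest shNC peak, 300 nt at nt 2543 to 2842, had a fold enrichment of 1.76 and was met in shY2-2 by one of 120 nt with 1.22. The strongest shY2-2 peak, 2.78 at the very 3′ end, nt 8390 to 8719 (chr22:30979066-30979395), met none in shNC, but its FDR was 0.353. In shNC the peaks at nt 1676 to 1795 (1.61) and nt 7432 to 7612 (1.22) met none, with FDRs of 0.220 and 0.223. At an FDR of at most 0.05, shNC had 2 peaks over 511 nt and shY2-2 had 1 over 510 nt. None of the 8 GGACT sequences of TUG1 lay in a peak of either list, or within 200 nt of one. The lncRNA AC004542.2 lies inside TUG1 on the opposite strand, at 0.749 and 0.710 FPKM.

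**Figure D5:**
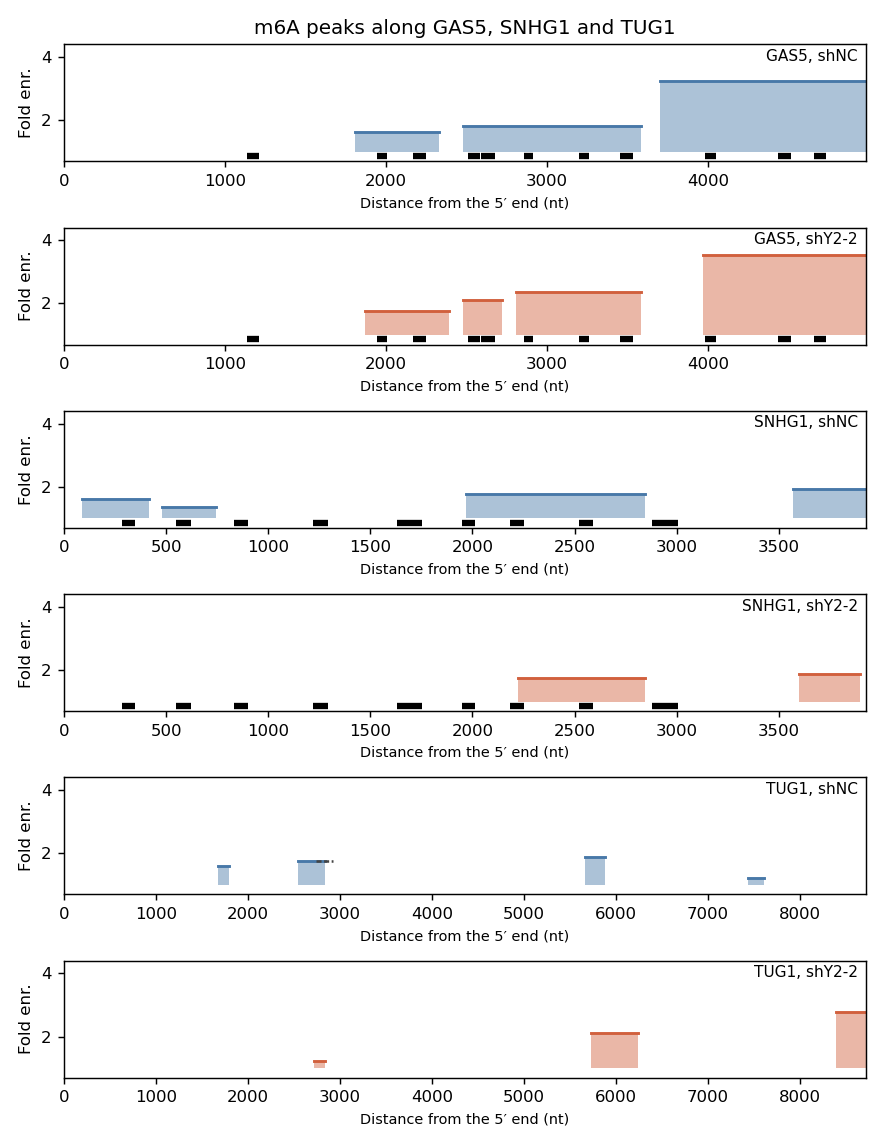
Fold enrichment of IP over input (vertical axis, drawn from 1 upwards) of each m6A peak of GAS5, SNHG1 and TUG1 against its distance from the 5′ end in nt (horizontal axis), for shNC in blue and shY2-2 in orange, with snoRNAs as black bars and 2-block peaks drawn from first to last base. GAS5 peaks take the same places in both lists up to nt 4983, the pair of SNHG1 peaks before nt 746 is present in shNC alone, and the dashed line on TUG1 is a peak listed under another name.

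The m6A sequence content of the peaks differed from the rest of each RNA in no single direction. Over the 5 RNAs, DRACH occurred 20.7 times per kb in the stretches covered in both lists and 18.3 times per kb in exonic sequence outside peaks, and it was denser in the shared stretches in 4 of 5 RNAs, with 40.6 against 23.7 on TUG1, and less dense on MALAT1, with 11.0 against 20.5. GGAC went the other way, with 2.00 and 2.68 per kb, and was less dense in the shared stretches in all 5. The values were close on GAS5, with 2.47 against 2.51, and on NEAT1, with 2.40 against 2.66. Shared stretches were counted by gene name here, so NEAT1 nt 804 to 1373 was not among them. GGACT was at 0.461 and 1.16 per kb, and was denser in the shared stretches of GAS5 and SNHG1 alone. Over all 5337 shNC peaks on chromosomes 1, 11 and 22, where these RNAs lie, GGAC occurred 4.28 times and GGACT 1.22 times per kb, and 30.1% of peaks held a GGACT. Of the 21 shNC peaks on the RNAs 3 held a GGACT, and of the 29 shY2-2 peaks 5 did, where 31.0% of all shY2-2 peaks on those chromosomes did. A GGAC was held by 14 of the 21 and 13 of the 29, beside 63.1% and 62.6% of all peaks there. A DRACH was held by 20 of the 21 and 27 of the 29, beside 95.4% and 94.8%. The search used the transcript strand only, GGACT is part of both GGAC and DRACH, and absence of these letters says nothing about methylation at other sequences.

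Other snoRNA host genes were read beside GAS5 and SNHG1. Of 26 listed names, 23 were found and kept, those of GAS5 and SNHG1 included. Their median log2 ratio was 0.25, beside 0.00 over all genes kept, and 18 of 23 ratios were above 0. DANCR was the one past 1, at 3.93 FPKM in shNC and 13.5 in shY2-2 (log2 ratio 1.55), and none was below -1, beside 0.986% and 2.14% of all genes kept. The highest levels were those of LRRC75A-AS1 at 49.8 and 68.2 FPKM, SNHG6 at 51.9 and 65.8, and SNHG19 at 35.5 and 33.6. GAS5, at 0.25, was thus the median of this list, and SNHG1 was in its lower part. Both lists held peaks for 15 of the 23, where the shares over all genes kept and over the lncRNAs kept were 72.7% and 31.3%.

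Further lncRNAs were taken from a list of well known ones. Of 24 rows found, 15 were kept and 0 passed 1 in size, beside 0.986% upwards and 2.14% downwards of all genes kept, with a median log2 ratio of 0.04. TINCR was the highest, at 0.354 and 1.16 FPKM (0.67), and MIR22HG the lowest, at 3.43 and 2.51 FPKM (-0.34). The 3 with the highest level were NORAD, a cytoplasmic RNA that binds PUMILIO proteins, at 45.9 and 49.5 FPKM, the imprinted H19 at 8.63 and 6.99, and CYTOR at 6.57 and 6.71. MALAT1 and NEAT1 were thus both below the lowest ratio of this list, with -0.80 and -0.61.

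Genes that work with these RNAs, or handle them, were listed as well. All 18 paraspeckle protein genes were kept, with a median of -0.07 and a range from -0.43 for HNRNPK to 0.37 for DAZAP1. Among 17 nuclear speckle protein genes the median was -0.06, from -0.95 for PNN, at 52.6 and 26.7 FPKM, to 0.44 for RNPS1. Among 12 factors of nonsense-mediated decay and RNA turnover it was -0.15, with the lowest ratio, -0.69, for the exonuclease XRN1. Among 13 m6A writers and nuclear m6A binding proteins it was -0.12, from -0.44 for ZC3H13 to 0.56 for RBM15B, both parts of the methyltransferase complex. In these 4 lists 0 genes passed 1 in size, a limit that 0.986% of all genes kept passed upwards and 2.14% downwards, so a count of 0 is near the background.

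The genome neighbours of the RNAs showed no shared direction. Beside NEAT1 and MALAT1 on chromosome 11, FRMD8 was at 3.69 and 4.39 FPKM (log2 ratio 0.20) and LTBP3 at 9.00 and 7.06 (-0.31). SLC3A2, which lies next to SNHG1 and encodes an amino acid transporter subunit, was at 99.9 and 113 FPKM (0.18), and MORC2, next to TUG1, was at 5.34 and 4.54 (-0.19). In the imprinted domain that KCNQ1OT1 silences, 6 of 8 genes were kept, with a median of 0.16, from SLC22A18 at 2.77 and 2.01 FPKM (-0.32) to TSSC4 at 5.27 and 6.90 (0.33). CDKN1C, a cell cycle inhibitor of that domain, was below the limit at 0.184 and 0.225 FPKM, and KCNQ1 was at 0.152 and 0.0633.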

How the data were processed

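Input and m6A IP libraries of A549 cells with shNC or shY2-2 were used, 1 of each, grouped by the sample labels. The authors purified poly(A) RNA, made strand-specific libraries, mapped reads to GRCh38 with HISAT2 and used StringTie for the deposited gene levels in FPKM. The authors called peaks with exomePeak, IP over input, within each condition. Their fold enrichment is a linear ratio deposited with each peak, and the deposited p-value and log10 FDR score of each peak come from the same call. The labels also name fastp, ChIPseeker and HOMER, without versions, and the annotation release is not given in the sources used here. FPKM and peaks carry no counts, so no depth or precision from depth can be given.

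Ratios used a pseudocount of 1 and a minimum FPKM of 1. Peaks were counted once per position, strand and blocks. An FDR is 10 to the power of the deposited score. Sequence and canonical transcripts came from GRCh38 and GENCODE release 44, and snoRNAs from RefSeq. The members and gene lists were chosen with earlier results of these data known. Named from each list were the genes past a log2 ratio of 1 in size, or else the highest and lowest ratio, and for host genes and other lncRNAs also the 3 highest levels. For each RNA, the strongest and the longest peak and up to 3 unmet peaks were named. Of the genes this rule names, 2 are not reported here. CDKN1C, KCNQ1 and the marker and snoRNA values beyond that rule were named after their values were seen. Alternatives were another pseudocount, centring, no filter, other thresholds, stricter peak limits and other overlap rules. No column of values was left without a sample (0). The ratio calls and the overlap of intervals were tested on simulated data, which does not cover the motif, exon and snoRNA steps. Python 3.11.15, NumPy 2.4.6, pandas 2.3.3, SciPy 1.17.1 and matplotlib 3.10.9 were used.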

Additional observations from a re-analysis of the deposited data

How the results depend on the processing

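Of 36 values under alternatives 26 kept their size. Among the 36 were 10 log2 ratios, and 0 of these changed direction. The others are counts, lengths and percentages, which have no direction to change. The order of the covered lengths of NEAT1, which did depend on the limit, was not among the 36. No RNA passed a log2 ratio of 1 in size with a pseudocount of 0.1, after centring on the median gene or without the filter on FPKM, and 2 did at 1.5-fold. With a pseudocount of 0.1 the log2 ratio of NEAT1 was -0.75. At a fold enrichment of at least 2 the number of peaks was 8 in shNC and 17 in shY2-2, at one of at least 4 it was 5 and 7, and at an FDR of at most 0.001 it was 12 and 16. The covered length at a fold enrichment of at least 2 was 5188 nt in shNC and 8525 nt in shY2-2. At an FDR of at most 0.001 it was 6923 nt in shNC and 7378 nt in shY2-2, so the lists were closer there. The cause of these moves is the stricter limit itself, which removes peaks. Merging of overlapping peaks, and limits and counting by position for each RNA alone, were chosen after seeing the data. No paired analysis was possible because each group has 1 library. FPKM and peak lists hold no counts, so the precision that depth gives is unknown.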
